A study of Mus musculus with 4 samples.

Results

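The cells described here are Pmel-1 CD8 T cells that had been transferred into mice and were recovered from their B16-F10 tumours, in an arm whose cells were transduced with IRF4 and GFP and an arm whose cells carried GFP alone. A barcode of a transferred library counted as a cell from 1000 unique molecular identifiers (UMIs) and 500 genes upwards, if no more than 10% of its UMIs were mitochondrial. It also needed at least 2 UMIs of Cd8a and Cd8b1 together, at least 1 UMI of Cd3d, Cd3e and Cd3g together, no UMI of the B cell gene Cd79a, and under 10 UMIs of the myeloid gene Lyz2 per 10000. These conditions left 496 IRF4 and 2107 control cells, 2603 of the 17711 barcodes in the 4 libraries of the series. Pmel-1 cells carry a transgenic T cell receptor for gp100, an antigen of melanocytes and of the B16-F10 melanoma line, and the labels give the strain as C57BL/6. T cells were given on day 3 after the tumour and recovered on day 14 by sorting, and droplet libraries were made with a 3' kit of version 3. The other 2 libraries hold endogenous CD45+ cells of the same arms. Each group is 1 library, and the number of mice behind it, the vector and the number of cells given are not stated in the sources used here.

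IRF4 is a transcription factor that T cell receptor signalling induces in proportion to its strength. It binds DNA poorly alone and works mostly with BATF and JUN proteins, and CD8 T cells need it to expand and to become effector cells. Effector CD8 T cells kill with granzymes and perforin and secrete interferon-gamma, whereas TCF1 (the product of Tcf7) and LEF1 mark cells that keep the capacity to renew. Under lasting antigen, as in tumours, CD8 T cells also raise the inhibitory receptors PD-1, LAG-3, TIM-3 (Havcr2) and CTLA-4.

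The cells matched the Pmel-1 CD8 part of their label, while their transduction could not be checked. A UMI of Trbv14, the gene segment of the Pmel-1 receptor beta chain, was found in 92.3% (89.6 to 94.5) of IRF4 and 89.4% (88.0 to 90.7) of control cells, and in 2.53% and 0.519% of endogenous CD8 cells chosen by the same conditions. Trbv14 made up 98.1% and 97.5% of all Trbv UMIs in the transferred cells. A UMI of Cd4 was seen in 0.403% and 0.617% of them. The medians were 16221 and 19742 UMIs and 3446 and 3903 genes a cell, and the sums over cells were 14061052 and 68282866 UMIs. The files hold no GFP gene. The 2 transferred libraries shared no barcode. Of the barcodes that were left out, 41 and 232 failed the Lyz2 condition alone, so cells with heavy myeloid RNA were removed by rule, while lighter amounts were not. All 8 myeloid markers were detected in both libraries and summed to 225 and 312 UMIs per 1000000 (CPM), of which Lyz2, the gene capped by the conditions, gave 68.9 and 130.0, red cell markers to 0.284 and 139 CPM, platelet markers to 15.3 and 98.8 CPM, and the antigen-presentation list led by Cd74 to 372 and 542 CPM. All 4 sums were lower in IRF4 cells, and their part in the results below was not tested except where a value is given.

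UMIs were summed over the cells of each library and scaled to CPM, and a gene counted as measured if at least 1 of the 2 libraries reached 10 CPM. It was called higher or lower in IRF4 cells at a ratio of 1.5 on log2(CPM + 1), a scale that understates the change of low genes. Printed ratios are plain ratios of CPM, IRF4 over control, with 95% intervals that cover counting error only. With 1 library a side no test is possible, so "higher" and "lower" describe these 2 libraries and carry no statement on the spread between animals. Fewer cells with a transcript and less of it per cell cannot be told apart in the sums, so shares of cells are given beside them. Of 7528 measured genes, 282 (3.75%) were higher and 235 (3.12%) lower, and the median log2 ratio was 0.01. These percentages are the background against which each list below is read.

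**Figure D1:**
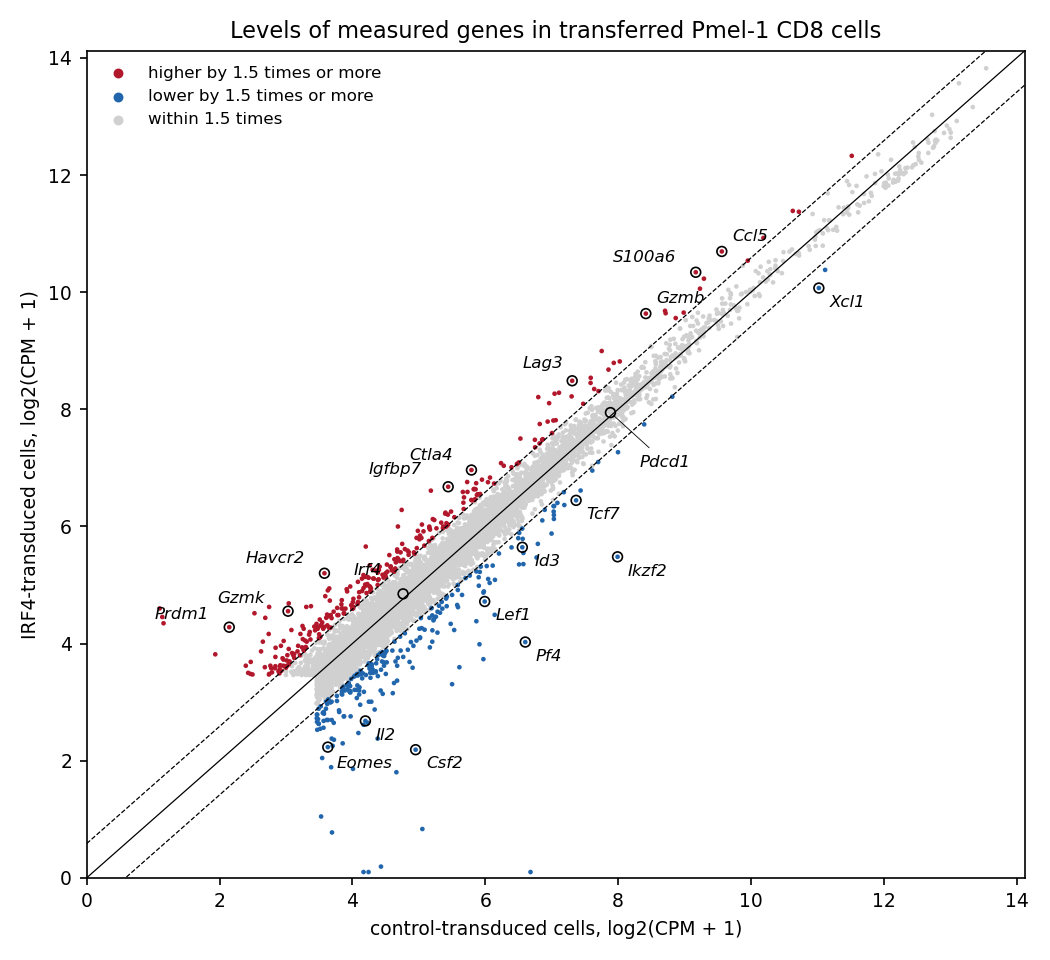
Each point is 1 of 7528 measured genes, with its level in control cells on the horizontal axis and in IRF4 cells on the vertical axis, both as log2(CPM + 1) of UMIs summed over 2107 and 496 cells. Dashed lines mark a ratio of 1.5 either way. Gzmb, Lag3 and Ccl5 lie above the band, Ikzf2, Tcf7 and Xcl1 below it, and Irf4 and Pdcd1 inside it.

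Among genes of T cell differentiation, some effector and some inhibitory receptor transcripts were higher in IRF4 cells. Transcripts of Helios and of several stem-like factors were lower, beside higher histone and cell cycle genes described further on. Neither class was higher as a whole. Of 14 effector factors 2 were higher and 3 lower, and of 17 granule genes 3 were higher. Of 9 cytokines 4 were lower and none higher, and of 11 inhibitory receptors 4 were higher and 2 lower. Gzmb, which encodes granzyme B, stood at 793 CPM in IRF4 and 341 CPM in control cells, a ratio of 2.33 (2.28 to 2.38). Prdm1, which encodes the effector factor BLIMP-1, stood at 18.4 against 3.43 CPM (IRF4 against control, here and below), a ratio of 5.38 (4.49 to 6.44). Ikzf2, which encodes the Ikaros-family factor Helios, stood at 43.7 against 254 CPM, a ratio of 0.172 (0.159 to 0.187). None of these intervals comes near 1, but they treat each UMI as independent. They cover neither the spread between cells nor that between mice. Of the Gzmb UMIs, 50% came from 33 IRF4 and 77 control cells. For Prdm1 these were 27 IRF4 and 39 control cells, and for Ikzf2 22 IRF4 and 203 control cells. Tcf7 was lower as well, at 86.1 against 164 CPM, a ratio of 0.525 (0.494 to 0.557).

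Irf4 itself did not separate the arms. Its transcript stood at 27.8 CPM in IRF4 and 26.2 CPM in control cells, a ratio of 1.06 (0.95 to 1.19), and after each cell was thinned to 2000 UMIs, which left out 5 shallower control cells, a UMI was found in 4.03% (2.48 to 6.16) of IRF4 and 4.47% (3.63 to 5.44) of control cells. The unthinned shares were 34.9% and 32.7%. A 3' library reads the end of a transcript, and the transcript of a vector may end elsewhere than the gene does, so the equal level checks neither the label nor the protein. Irf4 (Ensembl identifier ENSMUSG00000021356) lies at chr13:30749226-30766976 on the plus strand in the mouse build GRCm38. In cells thinned to 5000 UMIs, which left out 13 IRF4 and 121 control cells, 66.1% of the 56 IRF4 cells with an Irf4 UMI also had one of Gzmb, against 58.1% of those without. In control cells, 187 of them with an Irf4 UMI, the same shares were 41.7% and 25.5%. Ifng was found in 55.4% and 29.5% of IRF4 cells with and without an Irf4 UMI, and in 41.2% and 21.4% of control cells. The Gzmb shares of IRF4 cells lay closest together and rest on 37 of 56 cells. No intervals were computed for these shares.

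Among the 14 measured genes of the IRF4 and AP-1 list, 2 were higher and none lower, with a median log2 ratio of 0.04. Fosb, an immediate early AP-1 subunit, was at 59.7 against 30.7 CPM, a ratio of 1.95 (1.8 to 2.11). Batf3, a relative of BATF, was at 11.3 against 4.26 CPM, but 7 IRF4 and 15 control cells held 50% of its UMIs. The partners most often named with IRF4 stayed within the fold: Batf had a ratio of 0.81, Junb of 1.21, Jun of 1.29, and Irf8, the closest relative of IRF4, of 0.994.

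The promoters of 3 higher genes are shown here because they hold the AP-1 letters that BATF and JUN dimers read. The lines give the 250 bases before the RefSeq start site (GRCm38.p6), 5' to 3' on the strand of the gene, with the motif TGANTCA in capitals.
Prdm1, chr10:44458749-44458998, minus strand: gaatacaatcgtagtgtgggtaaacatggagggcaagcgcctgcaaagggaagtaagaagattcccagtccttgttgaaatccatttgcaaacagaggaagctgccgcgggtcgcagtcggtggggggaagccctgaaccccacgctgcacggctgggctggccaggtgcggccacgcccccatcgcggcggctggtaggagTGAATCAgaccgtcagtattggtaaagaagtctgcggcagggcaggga
Gzmb, chr14:56262335-56262584, minus strand: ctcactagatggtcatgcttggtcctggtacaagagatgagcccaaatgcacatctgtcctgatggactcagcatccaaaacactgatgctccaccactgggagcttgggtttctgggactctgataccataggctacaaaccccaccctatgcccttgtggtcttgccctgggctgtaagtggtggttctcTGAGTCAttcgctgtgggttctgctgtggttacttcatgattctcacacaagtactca
Havcr2, chr11:46454681-46454930, plus strand: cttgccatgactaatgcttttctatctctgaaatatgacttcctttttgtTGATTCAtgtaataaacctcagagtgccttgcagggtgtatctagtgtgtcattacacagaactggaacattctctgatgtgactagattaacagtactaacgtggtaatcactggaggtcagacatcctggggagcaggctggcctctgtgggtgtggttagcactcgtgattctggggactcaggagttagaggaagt
The motif begins 48, 58 and 200 bases before the start site in Prdm1, Gzmb and Havcr2. TGANTCA reads the same on both strands, and it was searched in the 300-base window from 250 bases before to 50 after each start. It was present in 8.71% of 241 promoters of higher genes, 9.55% of 220 promoters of lower genes, 4.83% of 7437 promoters of all measured genes and 7.81% of all 32851 promoters in the table. Higher and lower genes held it at like shares. The interferon-response letters, GAAA, any 2 bases and GAAA again, searched on both strands, were in 3.73% and 5% of those promoters and in 3.25% of those of measured genes. The composite letters of BATF with IRF, on both strands, TTTC with any 4 bases and TGANTCA, or GAAA directly before TGANTCA, each overlapping the AP-1 motif, were in none of the 241 and 220 promoters and in 0.067% and 0.081% of those of measured genes. RefSeq promoters were matched by symbol for 201 of 282 higher and 175 of 235 lower genes. A match of letters is no binding site, and distal elements were not searched.

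Effector differentiation factors differed in both directions. Of 14 measured, 2 were higher and 3 lower, with a median log2 ratio of 0.23. Prdm1 had the highest ratio of the list. The cells richest in it that together held 50% of its UMIs were 27 IRF4 and 39 control cells, and a UMI was found in 4.64% (2.96 to 6.88) of IRF4 and 0.761% (0.436 to 1.23) of control cells after thinning, against 0.658% to 4.09% of endogenous B and myeloid cells. Myeloid cells express Prdm1, and at this depth the share in IRF4 cells was just above theirs and the one in control cells below it. Runx3, which sustains the CD8 lineage and cytotoxic genes, was at 177 against 115 CPM, a ratio of 1.54 (1.48 to 1.62). Stat4 (ratio 1.49), Bhlhe40 (1.32), Tbx21, which encodes T-bet (1.29), and Id2 (1.26) had ratios above 1 but within the fold. Lower were Eomes, the T-box relative of T-bet, at 3.7 against 11.4 CPM (ratio 0.325, 0.241 to 0.431), Id3, an inhibitor of E proteins found in memory-type cells, at 49 against 93.2 CPM (ratio 0.526, 0.485 to 0.569), and Runx1 at 11.8 against 21.2 CPM. Eomes had 52 UMIs in all IRF4 cells, and 3 cells held 50% of them.

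The Ikaros family differed member by member. Ikzf2 was the only one of 4 measured members past the fold, and it was lower by the widest margin of any list gene other than Csf2, Pf4 and the red cell genes. A UMI of Ikzf2 was found in 7.66% (5.48 to 10.4) of IRF4 and 29.6% (27.6 to 31.6) of control cells after thinning, against 0.558% to 0.917% of B and myeloid cells and 21.4% and 20.1% of endogenous CD8 cells in the IRF4 and control arm. Cells with a UMI also held fewer of them, with 4.21 and 13.3 UMIs a cell before thinning. Ikzf1 (Ikaros, 165 against 169 CPM) was near equal, and Ikzf3 (Aiolos, 61.4 against 42.6 CPM) had a ratio of 1.44 (1.33 to 1.56), within the fold. The gene Ikzf2 (ENSMUSG00000025997) lies at chr1:69531214-69687245 on the minus strand.

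Stem and memory factors and receptors were the list with the lowest median among those of 14 or more measured genes, at a log2 ratio of -0.61. Of 14 measured, none was higher and 7 were lower. Lef1, a TCF1 partner, was at 25.3 against 62.6 CPM (ratio 0.404, 0.362 to 0.45). Xcl1, a chemokine that draws cross-presenting dendritic cells and marks stem-like CD8 T cells, was at 1074 against 2078 CPM (ratio 0.517, 0.508 to 0.525). Bcl6, the BLIMP-1 antagonist, was at 6.12 against 10.9 CPM, Myb at 39.3 against 68.2 CPM, and Slamf6, a surface marker of stem-like cells, at 67.7 against 115 CPM. Members within the fold included Il7r, the interleukin 7 receptor, at 133 against 178 CPM, Ccr7 at 254 against 194 CPM, Klf2 at 96.1 against 68.9 CPM and Foxo1 at 31.8 against 28.8 CPM. A Tcf7 UMI was found in 12.5% (9.72 to 15.7) of IRF4 and 28.4% (26.4 to 30.3) of control cells, against at most 1.83% of B and myeloid cells. For Slamf6 (12.9% and 20.8%) and Id3 (6.45% and 15.4%) B cells, which express both, gave up to 30.04% and 17.4%, and myeloid cells up to 1.6% and 4.7%. The call of Bcl6 was lost under 4 of 13 alternatives, among them cells of 5000 to 40000 UMIs, and that of Tcf7 under none.

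Tcf7 and granzyme B were also counted in the same cells, thinned to 5000 UMIs. Of IRF4 cells, 50.3% had a Gzmb UMI without Tcf7, 18.8% Tcf7 without Gzmb and 8.7% both. Of control cells, 17.4% had Gzmb alone, 41.6% Tcf7 alone and 9.67% both. The single-positive classes thus stood in the opposite order in the 2 libraries, while the double-positive share was close. Among Tcf7-positive cells, 31.6% of IRF4 and 18.8% of control cells had a Gzmb UMI, and among Tcf7-negative cells 69.4% and 35.7% did. Ikzf2 was found in 10.5% of Tcf7-positive IRF4 cells and 53.1% of Tcf7-positive control cells. Gzmb was therefore more frequent and Ikzf2 less frequent in the IRF4 cells on both sides of the Tcf7 split, where Ikzf2 on the Tcf7-negative side was in 16% and 39.1%.

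**Figure D2:**
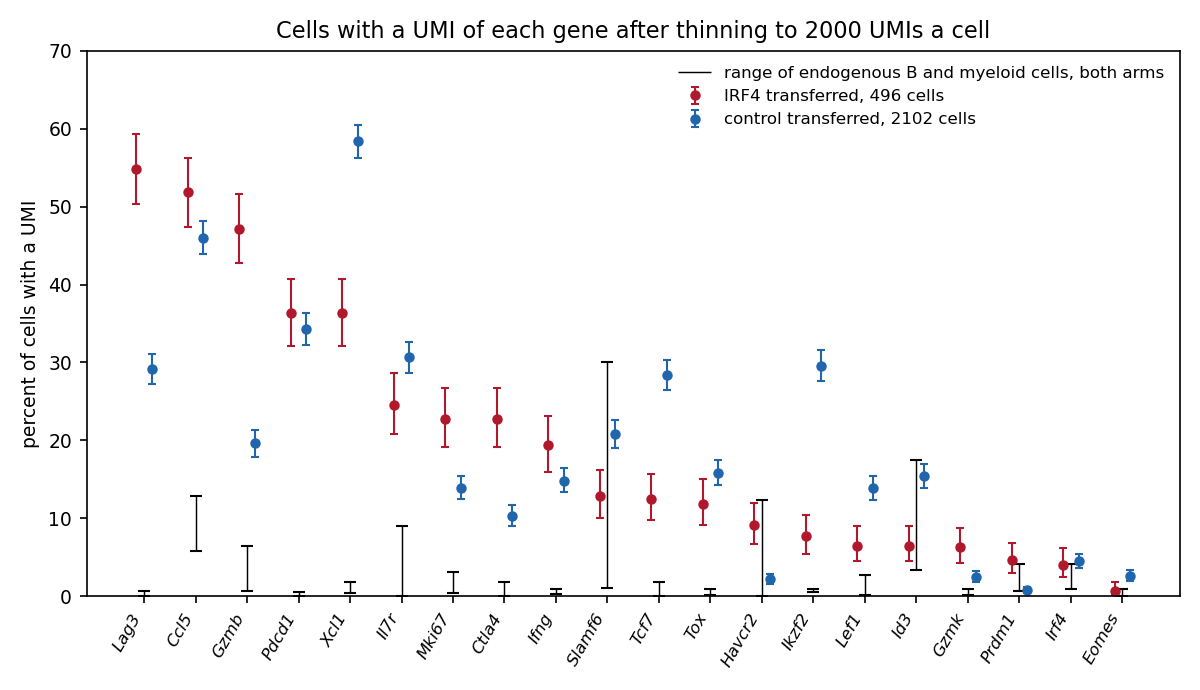
Percent of cells with a UMI of each gene after thinning to 2000 UMIs, in 496 IRF4 and 2102 control cells, with 95% Clopper-Pearson intervals for counting error. Black bars span the shares in endogenous B and myeloid cells. Lag3, Gzmb and Ctla4 were found in more IRF4 cells, Xcl1, Tcf7 and Ikzf2 in more control cells, and the intervals of Pdcd1 and Irf4 overlapped.

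Inhibitory receptors split into 2 sets. Of 11 measured, 4 were higher and 2 lower, with a median log2 ratio near 0. Lag3, a receptor for MHC class II, was at 358 CPM in IRF4 and 158 CPM in control cells, a ratio of 2.27 (2.2 to 2.35). Ctla4, which competes with CD28 for its ligands, was at 124 against 54.4 CPM (ratio 2.27, 2.15 to 2.41). Havcr2 was at 35.8 against 10.95 CPM (ratio 3.27, 2.91 to 3.66). Lair1, a collagen receptor, was at 10.2 against 5.73 CPM. Against these, Btla was lower at 16.2 against 31.4 CPM. Cd101, a receptor of terminal cells, was lower at 6.4 against 10.3 CPM but lost its call under 8 of 13 alternatives. Pdcd1, the gene of PD-1, was level at 245 CPM in IRF4 and 235 CPM in control cells, a ratio of 1.04 (1.004 to 1.08), as was Klrc1 at 157 against 157 CPM. A Lag3 UMI was found in 54.8% (50.3 to 59.3) of IRF4 and 29.1% (27.2 to 31.1) of control cells, and a Ctla4 UMI in 22.8% (19.2 to 26.7) of IRF4 and 10.3% (9.01 to 11.7) of control cells. Pdcd1 was found in 36.3% (32.1 to 40.7) of IRF4 and 34.3% (32.2 to 36.3) of control cells. B and myeloid cells had a Lag3 UMI in at most 0.658% and a Ctla4 UMI in at most 1.83%. Havcr2 was found in 9.07% (6.69 to 11.95) of IRF4 and 2.19% (1.61 to 2.91) of control cells, but also in 7.9% and 12.4% of endogenous myeloid cells, which express it. Those cells had median depths of 11610 and 14390 UMIs and B cells 3326 and 3595.

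Lag3 and Havcr2 were also counted together with Pdcd1. In cells thinned to 5000 UMIs, 80.4% of Pdcd1-positive IRF4 cells had a Lag3 UMI, against 60.3% in control, and 20.6% had a Havcr2 UMI, against 5.47%. The Pdcd1-negative cells had Lag3 in 67.7% and 42.5% and Havcr2 in 5.73% and 3.93%. A higher Lag3 share was thus present with and without a Pdcd1 UMI.

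Over all cells, factors tied to exhaustion did not follow the receptors. Of 8 measured TOX, NR4A and NFAT factors, a list that includes Egr1 and Egr2, none was past the fold, and the median log2 ratio was -0.08. In non-cycling cells, as divided further on, 2 of 8 were higher and none lower. These were Egr2 and Egr1, with log2 ratios of 0.76 and 0.60 there. In cycling cells none was past the fold. Tox, which installs the exhaustion program, was at 63.2 CPM in IRF4 and 91.05 CPM in control cells, a ratio of 0.694 (0.646 to 0.744), and was found in 11.9% and 15.8% of IRF4 and control cells. Nr4a3 had a ratio of 0.719, Nr4a1 of 0.791 and Nfatc1 of 0.989. Tox2 was under the 10 CPM needed to be measured, with 3.98 against 0.322 CPM.

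Granule genes differed in a few members rather than as a set. Of 17 measured, 3 were higher and none lower, with a median log2 ratio of 0.06. A Gzmb UMI was found in 47.2% (42.7 to 51.7) of IRF4 and 19.6% (17.9 to 21.4) of control cells, against 0.62% to 6.42% of B and myeloid cells. Unthinned, Gzmb was found in 70.2% and 42.6% of IRF4 and control cells, Lag3 in 93.5% and 79.4%, Tcf7 in 49.8% and 77.9% and Ikzf2 in 29.4% and 61.8%, the arms being in the same order as after thinning. Cells with a Gzmb UMI held 32.1 and 25.95 of them before thinning. The share of cells differed more between the libraries than this mean per positive cell. The mean was taken at unlike depths, and 33 IRF4 and 77 control cells held 50% of the Gzmb UMIs. Gzmk, granzyme K, was at 22.5 against 7.18 CPM (ratio 3.13, 2.71 to 3.61), and Fasl, the Fas ligand, at 37.9 against 24.02 CPM (ratio 1.58, 1.43 to 1.74). Prf1, perforin, was at 32.4 against 26.9 CPM, Gzma at 43.5 against 45.7 CPM and Nkg7, a granule membrane protein, at 1311 against 1354 CPM, all within the fold. Gzmb to Gzmg are close neighbours in sequence and in the genome, so reads could be split between them, which was not tested. Gzmc was within the fold at 32.3 against 48.3 CPM, with 50% of its UMIs in 1 IRF4 and 6 control cells. Gzmb-positive cells more often held a Gzmk UMI in the IRF4 library, 16.8% against 6.7%, while the Prf1 shares among them were 21.8% and 18.1%.

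Measured cytokine transcripts were lower where they passed the fold. Of 9 measured, 4 were lower and none higher, with a median log2 ratio of -0.33. Csf2, the gene of GM-CSF, was at 3.56 against 29.9 CPM (ratio 0.119, 0.0878 to 0.157) and Il2 at 5.41 against 17.3 CPM (ratio 0.312, 0.244 to 0.394). Ifng was at 213 against 335 CPM (ratio 0.636, 0.612 to 0.661). Spp1, osteopontin, was at 81.4 against 145 CPM with 50% of its IRF4 UMIs in 1 cell. These genes are carried by few cells: 50% of the Ifng UMIs came from 13 IRF4 and 37 control cells, and 50% of the Il2 UMIs from 22 IRF4 and 12 control cells. The share of cells with an Ifng UMI ran the other way, at 19.4% (15.97 to 23.1) of IRF4 and 14.8% (13.3 to 16.4) of control cells, and positive cells held 10.98 and 27.7 UMIs. These means rest on the few cells that hold most of the UMIs. Over 13 alternatives the call of Ifng was lost under 3, that of Spp1 and of Il2 under 1 each and that of Csf2 under none, with log2 ratios from -2.0 to 0.15 for Ifng and from -2.82 to 0.28 for Spp1. Tnf (16.6 against 19 CPM), Ltb (596 against 599 CPM) and Tgfb1 (157 against 139 CPM) were within the fold. Of those under the 10 CPM needed to be measured, Il21 was at 2.2 against 0.205 CPM and Il10 at 0.853 against 0.205 CPM. Il3 was at 0.569 against 0.249 CPM and Areg at 0 against 0.0879 CPM.

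Chemokines differed in opposite directions. Ccl5, a chemokine that effector cells store, was the only one of 8 that was higher, at 1657 against 754 CPM (ratio 2.2, 2.16 to 2.23). It was found in 51.8% (47.3 to 56.3) of IRF4 and 46% (43.9 to 48.2) of control cells, and positive cells held 56.95 and 31.4 UMIs, with 50% of all UMIs in 23 IRF4 and 177 control cells. Among cells without a UMI of Lyz2, Cd74, Hbb-bs and Pmel (191 and 478 cells) its log2 ratio was 0.27 in place of 1.13. Besides Xcl1, the lower ones were Ccl9 at 21.5 against 69.6 CPM and Ccl6 at 34.1 against 58.8 CPM, both mostly made by myeloid cells. For Ccl9 50% of the UMIs were in 5 IRF4 and 52 control cells, and for Ccl6 in 3 and 25. The call of Ccl9 was lost under none of 13 alternatives, among them cells without 10 myeloid and red cell genes. That of Ccl6 was lost under 2. Ccl3 (272 against 361 CPM) and Ccl4 (602 against 886 CPM), both secreted on T cell receptor stimulation, were within the fold. Among chemokine receptors, none of 8 was higher, and Cxcr4 (10.2 against 16.6 CPM) and Ccr2 (16.1 against 31.4 CPM) were lower. Cxcr3 and Cxcr6, which guide effector cells into tissue, had ratios of 1.09 and 1.22.

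Costimulatory receptors were close between the arms, with none of 13 higher and 2 lower. Cd28 was at 242 against 182 CPM, Tnfrsf9 (4-1BB) at 212 against 226 CPM, Icos at 58.3 against 52.6 CPM and Tnfrsf18 (GITR) at 253 against 240.2 CPM. The 2 lower were Cd7 (11.8 against 21.9 CPM) and Cd5 (54.7 against 89.3 CPM), the second a brake on receptor signalling. Of 24 measured cytokine receptors and signalling genes, Il12rb2, the inducible chain of the interleukin 12 receptor, was higher at 30.5 against 18.2 CPM and Il4ra lower at 20.6 against 31.7 CPM. Il2rb, shared by interleukins 2 and 15, had a ratio of 1.34 and Il2ra of 1.21. None of 5 measured NK-type lectin receptors passed the fold.

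The signalling path of the T cell receptor was largely level, with exceptions among its modifiers. Of 40 measured genes, 1 was higher and 5 lower, and the median log2 ratio was 0.03. Among proximal kinases Lck had a ratio of 0.971 and Zap70 of 0.904. Cd247, the CD3 zeta chain, had a ratio of 1.5 (1.4 to 1.6), just inside the fold over all cells, with log2 ratios of 0.65 in non-cycling and 0.68 in cycling cells, while Cd3e, one of the genes the cells were chosen on, had a ratio of 1.07. Dusp5, a phosphatase that retains ERK in the nucleus, was at 34.2 against 17.3 CPM (ratio 1.98, 1.78 to 2.21). The lower genes included Rasgrp1, which activates RAS downstream of the receptor, at 33 against 69.8 CPM (ratio 0.473, 0.429 to 0.52), the ERK pathway inhibitors Spry1 at 23.6 against 47.2 CPM and Spry2 at 8.18 against 16.2 CPM, and the TEC kinase gene Txk at 8.18 against 20.5 CPM. Cd5, named above, is the fifth.

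A few members of the adhesion and S100 lists were higher in IRF4 cells. Itgb1, the integrin beta 1 chain, was at 1066 CPM in IRF4 and 600.4 CPM in control cells (ratio 1.78, 1.74 to 1.81), with 50% of its UMIs in 79 IRF4 and 296 control cells. S1pr4, a sphingosine phosphate receptor, was at 46.3 against 27.8 CPM and Rgs16, a regulator of G protein signals, at 177 against 106 CPM. In this list of adhesion, residency and egress genes 3 of 17 were higher and 1 lower, with a median log2 ratio of 0.17. Of 17 genes in the list of S100 genes, galectins and others, 3 were higher and none lower, with a median log2 ratio of 0.30. These were S100a6 at 1295 against 575 CPM (ratio 2.25, 2.21 to 2.29), S100a4 at 408 against 231 CPM and Crip1 at 1200.1 against 626 CPM. Lgals1, galectin 1, at 1403 against 941 CPM, had a ratio of 1.49, just inside the fold on the log scale used. Itgae, the residency integrin chain, was not measured at 1.49 against 2.28 CPM.

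**Figure D3:**
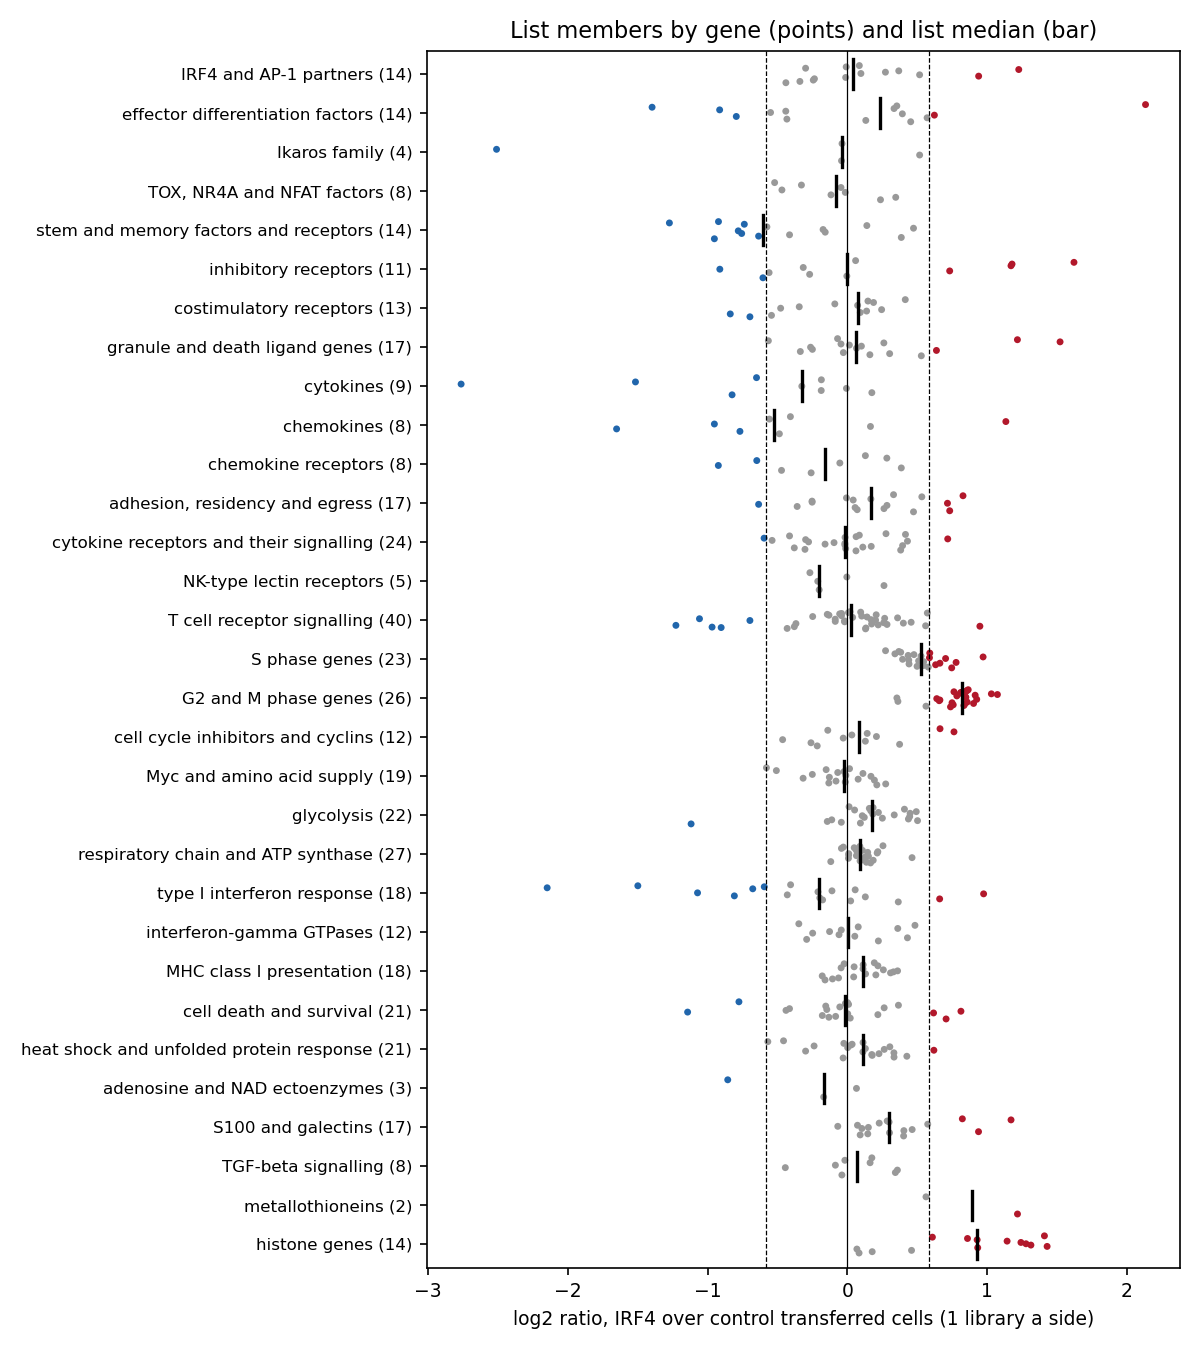
Each point is 1 measured gene of a list, placed by its log2 ratio of IRF4 over control cells, and the black bar is the median of the list, with the number of measured genes in parentheses. Dashed lines mark a ratio of 1.5. The G2 and M phase and histone lists lie to the right and the stem and memory list to the left, while metabolic lists cluster around 0.

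Genes of dividing cells were the largest block that was higher. Of 26 measured G2 and M phase genes 23 were higher and none lower, with a median log2 ratio of 0.82. Mki67, the Ki-67 antigen, was at 349 CPM in IRF4 and 191 CPM in control cells (ratio 1.82, 1.77 to 1.89) and Ccna2, cyclin A2, at 107 against 52 CPM. Of 23 S phase genes 8 were higher, with a median of 0.53, among them Rrm2, a ribonucleotide reductase subunit, at 180.1 against 91.4 CPM. Of 14 histone genes 10 were higher, with a median of 0.93, led by Hist1h4d (96.7 against 35.3 CPM) and Hist1h1b (295 against 110.3 CPM), and outside the list Hist1h2an (76.8 against 25.8 CPM) had the highest ratio of the abundant genes, 2.98 (2.76 to 3.22). The clustered histone genes are near copies of one another, so their single values are uncertain. Of the cyclin and inhibitor list, Cdkn2c (23.3 against 13.3 CPM) and Cdkn1a (42.1 against 26.2 CPM) were higher, the latter with 50% of its IRF4 UMIs in 9 cells and a log2 ratio of -0.32 in non-cycling cells as divided next.

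Cells were then divided by mitosis genes, each thinned to 5000 UMIs, a split chosen after these values were seen. At least 3 UMIs of Mki67, Top2a, Birc5, Cdk1 and Ccnb2 were found in 157 of 483 IRF4 cells (32.5%, 28.3 to 36.9) and 467 of 1986 control cells (23.5%, 21.7 to 25.4), a ratio of 1.38 (1.15 to 1.66). No UMI of the 5 genes was found in 46.6% and 55.6%. A wider gate, 3 UMIs of both proliferation lists, took in 91.1% and 88.1% of cells, a ratio of 1.03 (0.929 to 1.15). The cycling cells were deep, with medians of 42854 and 49290 UMIs against 11201 and 14664 in the non-cycling ones, and they held 8358527 of 14061052 IRF4 UMIs and 29536172 of 68282866 control UMIs. The sums over all cells therefore weigh cycling cells most.

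Most differences of list and leading genes outside the cell cycle were present in each class taken alone. Of 89 such genes past the fold, 73 were past it the same way in non-cycling cells and 61 in cycling cells. The 89 were chosen on sums over these same cells, and the number past the fold in both classes was not counted. Of all 282 higher genes, those of the cell cycle included, 114 were also higher in non-cycling and 130 in cycling cells. Of all 235 lower genes, 162 and 138 were also lower. Gzmb was at 801 against 346 CPM in non-cycling and 819 against 335 CPM in cycling cells, nearly the same pair of levels in both classes. Ikzf2 was at 63.4 against 299 CPM and 39.4 against 193 CPM, and Prdm1 had log2 ratios of 2.32 and 2.20. Other genes differed more in the non-cycling cells: Lag3 had log2 ratios of 1.83 and 0.79, Ccl5 of 1.71 and 0.97, S100a6 of 1.64 and 0.89, and Havcr2 of 2.10 and 1.32, in that order. Ccl5 stood at 3878 against 1183 CPM in non-cycling and at 635 against 323 CPM in cycling cells, the higher pair being that of the non-cycling ones. Ifng was lower in the non-cycling cells, at 206 against 496 CPM, and not in the cycling ones, at 223 against 200.3 CPM. Over all measured genes 3.92% were higher and 5.74% lower in non-cycling cells, and 2.11% and 2.34% in cycling cells. Whether the classes differ could not be tested with 1 library a side.

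Shares of cells gave the same picture by class, at 5000 UMIs a cell. Gzmb was found in 55.1% and 25.2% of non-cycling IRF4 and control cells and in 67.5% and 32.5% of cycling ones, and Lag3 in 83.6% and 52.2% and then 61.8% and 49.3%. For Tcf7 the shares were 27.1% and 53.1% and then 29.9% and 45.2%, and for Ikzf2 12% and 43.98% and then 16.6% and 46.3%. The arms thus kept their order for these 4 genes in either class.

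**Figure D4:**
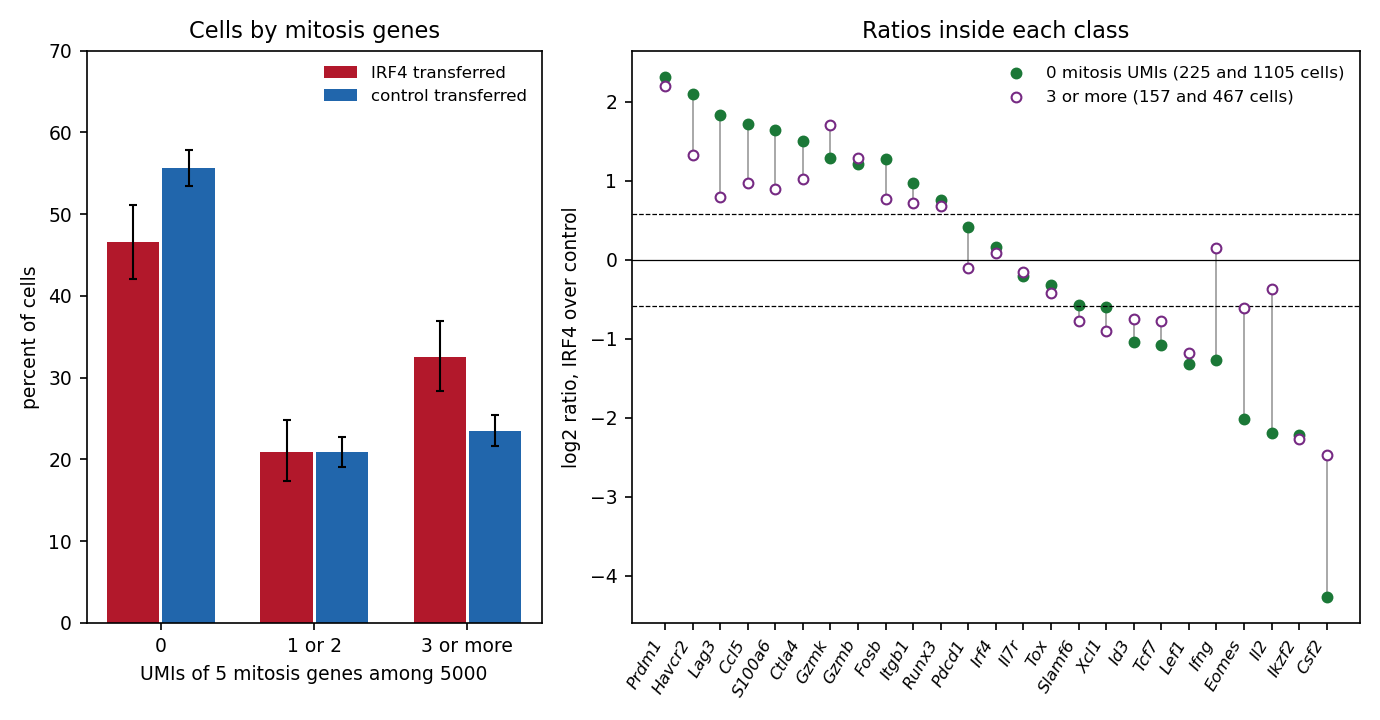
Left, percent of IRF4 and control cells with 0, 1 or 2, and 3 or more UMIs of 5 mitosis genes among 5000, with 95% Clopper-Pearson intervals for counting error. Right, log2 ratio of IRF4 over control for 25 genes in cells with 0 (filled) and with 3 or more (open) such UMIs. Gzmb, Prdm1 and Ikzf2 have like ratios in both classes, and Ifng, Il2 and Eomes lie farther apart.

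Metabolic and presentation genes were near equal. None of 27 respiratory chain and ATP synthase genes passed the fold (median log2 ratio 0.09), and none of 19 genes of the Myc and amino acid list did (median -0.02), with Myc at 60.02 against 90.2 CPM. Glycolysis genes had a median of 0.17, with Hif1a at 327 against 231 CPM and Ldha, lactate dehydrogenase, at 1465 against 1232 CPM, and 1 of 22 past the fold, Vegfa, lower at 5.76 against 13.7 CPM. In non-cycling cells the Myc and amino acid list stood lower, with 6 of 19 past the fold and a median of -0.55 beside -0.045 for all genes, and Myc at 49.5 against 105 CPM. None of 18 MHC class I genes and none of 12 interferon-gamma GTPases passed the fold. Atp5k, an ATP synthase subunit outside the list, was among the 15 highest ratios, at 310.3 against 137 CPM (ratio 2.26, 2.18 to 2.35).

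Type I interferon genes were more often lower than higher over all cells and in non-cycling cells. In cycling cells fewer of them were measured, and none of those was lower. Of 18 measured, 6 were lower and 2 higher, with a median log2 ratio of -0.20. In non-cycling cells, as divided above, 9 of 20 were lower and 2 higher, and in cycling cells none of 13 was lower and 2 were higher. Rsad2, Ifit3 and Rtp4 were under 10 CPM in cycling cells and so not counted there. Their log2 ratios stayed at or below -0.72, -0.95 and -0.67 under all 13 alternatives, cycling cells among them. Irf7, Ifit2 and Ifi204 lost their calls in cycling cells. Rsad2 was at 2.63 against 15.1 CPM, with 50% of its control UMIs in 5 cells, and Ifit3 at 3.13 against 10.7 CPM and Irf7, which amplifies the response, at 11.2 against 18.6 CPM. The 2 higher were Ifi27l2a at 820.0 against 417 CPM (ratio 1.97, 1.93 to 2.01), the most abundant of the list, and the nucleic acid sensor Zbp1 at 48.5 against 30.3 CPM. Isg15 was at 18.3 against 24.6 CPM, within the fold, with 50% of its IRF4 UMIs in 6 cells.

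Genes of cell death and survival differed in both directions. Bcl2, which protects resting and memory cells, was lower at 75.3 CPM in IRF4 and 129.7 CPM in control cells (ratio 0.581, 0.544 to 0.619). Its call was lost under 1 of 13 alternatives, the non-cycling cells, where the log2 ratio was -0.43. Fas, the death receptor, was lower at 19.2 against 43.6 CPM (ratio 0.44, 0.387 to 0.499). The higher ones included Pmaip1 (NOXA, 21.4 against 11.8 CPM) and Pycard, the inflammasome adaptor ASC (324 against 198 CPM). Mcl1 and Bcl2l11 were level, with ratios of 0.99 and 0.897. Of 21 heat shock and unfolded protein genes, 1 was higher: Xbp1, a regulator of secretory capacity, at 87.3 against 56.5 CPM. Of 3 measured ectoenzyme genes, Nt5e (CD73) was lower at 9.67 against 18.3 CPM, none of 8 TGF-beta signalling genes passed the fold, and Mt2, of 2 measured metallothioneins, was higher at 27.02 against 11.1 CPM, with 50% of its UMIs in 10 IRF4 and 37 control cells.

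Several of the 15 highest and 15 lowest ratios among genes of at least 50 CPM lie outside the lists. Higher were Igfbp7 at 101 CPM in IRF4 and 42.5 CPM in control cells (ratio 2.39, 2.24 to 2.54) and Ctla2a, a cathepsin inhibitor of activated T cells, at 307 against 131 CPM (ratio 2.34, 2.26 to 2.43), which has a near copy, Ctla2b, so that its count may be split. Lower were Bmyc, a MYC relative, at 14.9 against 59.3 CPM (ratio 0.251, 0.217 to 0.288), Itm2a at 39.97 against 94.3 CPM, Tnfsf8, the CD30 ligand, at 39.8 against 90.1 CPM, Emb at 57.8 against 127 CPM and Atp8b4 at 28.2 against 61.8 CPM. For each of these 7 genes, 50% of the UMIs came from at least 20 IRF4 and 132 control cells. The other low genes are typical of macrophages or platelets and sat in few cells: Pf4 at 15.3 against 96.2 CPM, Thbs1 at 12.3 against 61.8 CPM, Ctsl at 19.8 against 57.3 CPM, Hmox1 at 43.3 against 108 CPM, Apoe at 51.1 against 109.8 CPM and Basp1 at 28.7 against 62.1 CPM had 50% of their UMIs in 2 to 10 IRF4 and 17 to 48 control cells. The platelet marker sum was lower in the same library, and of the myeloid markers Cd14 (5.26 against 17.8 CPM) and Fcgr3 (12.8 against 21.3 CPM) were lower while C1qa (48.7 against 44.8 CPM) and C1qb (63.6 against 64.4 CPM) were near equal. Among cells without a UMI of Lyz2, Cd74, Hbb-bs and Pmel none of the 6 kept its call. Hbb-bs, at 0.0711 against 102 CPM, had 50% of its control UMIs in 1 cell.

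The same comparison in endogenous CD8 cells of the 2 arms, 2059 and 770 cells by the same conditions, used other libraries. Of 7836 genes measured there, 278 (3.55%) were higher and 592 (7.55%) lower in the IRF4 arm. The proliferation lists were higher there too, with 22 of 23 S phase and 19 of 26 G2 and M phase genes past the fold, cycling shares of 38% and 18.02% by the 5 mitosis genes, and Gzmk higher in both, at 387 against 114 CPM in endogenous cells. Of 258 genes higher in transferred cells and measured in both, 105 (40.7%) were higher and 15 (5.81%) lower in endogenous CD8 cells, where 3.35% and 5.12% of the 7285 genes measured in both were. Of 209 lower genes, 102 (48.8%) were lower and 4 (1.91%) higher. The marker sums that were lower among IRF4 transferred cells were lower in that arm's endogenous CD8 cells as well, 105 against 422 CPM for myeloid and 0.435 against 1378 CPM for red cell markers.

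Of the 15 leading higher genes, 10 were also higher between the endogenous cells, 4 were within the fold and 1 was lower, and of the 15 leading lower genes 9 were also lower and 6 within. By CPM, the genes picked out next, after their values were seen, were mostly within the fold there. Ikzf2 was at 172 against 198 CPM there (ratio 0.869), Lag3 at 162 against 195 CPM, Havcr2 had a ratio of 0.813, Prdm1 of 1.25, Gzmb of 1.23, Lef1 of 1.004, Tcf7 of 0.685 and S100a6 of 0.921, all within the fold. Ctla4, with 91.9 against 59.7 CPM, and Xcl1, with 149 against 286 CPM, were past it in the same direction in both. Pdcd1, level in the transferred cells, was higher in endogenous CD8 cells of the IRF4 arm, at 373 against 243 CPM (ratio 1.53). Shares of endogenous CD8 cells with a UMI after thinning, IRF4 arm against control arm, separated the arms for Gzmb, at 51.4% against 34.7%. This is the same direction as in transferred cells. For Tcf7 the shares were 17.05% against 20.4%, for Lag3 21.5% against 19.9% and for Ikzf2 21.4% against 20.1%. Differences between the comparisons in transferred and in endogenous cells were not tested.

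**Figure D5:**
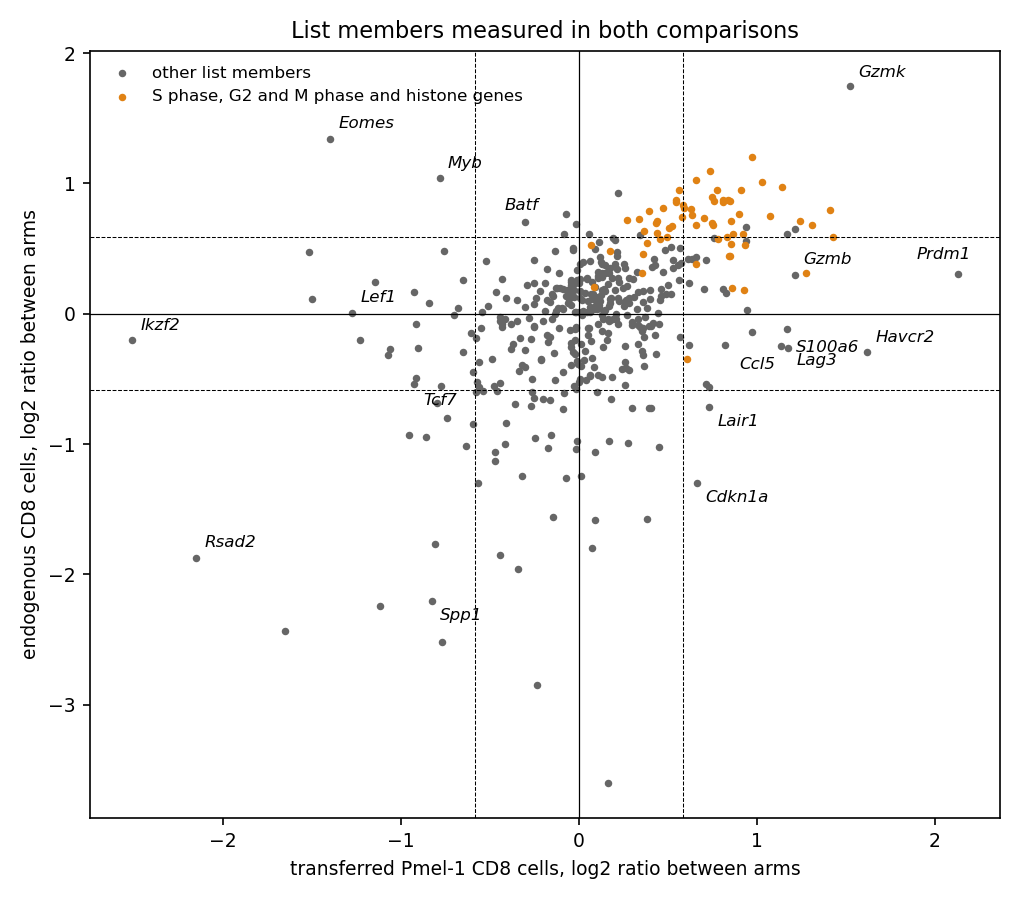
Log2 ratio between arms of each list member measured in both comparisons, in transferred cells (horizontal) and in endogenous CD8 cells (vertical), with dashed lines at a ratio of 1.5. Genes of the cell cycle and histones lie mostly in the upper right, and Prdm1, Havcr2, Lag3 and Ikzf2 lie far from 0 along the horizontal axis only.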

How the data were processed

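The files deposited by the authors hold UMI counts as whole numbers. The submitters' processing notes name Cell Ranger 3.0.2, STAR 2.6 and the build mm10. The labels' protocol speaks once of nuclei although cells were sorted, and barcodes were treated as cells. The files name 28692 genes. The members, the 41 gene lists and the rules for named genes were chosen with earlier results of these data known.

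Counts were summed over the cells of each library and scaled to CPM, with a pseudocount of 1 CPM in log2 ratios. Named are genes of the lists past the fold (up to 6 a list and direction) or within 1.2 times (up to 4), primary genes such as Irf4 and Pdcd1, and the 15 highest and 15 lowest ratios at 50 CPM or more whose UMIs did not come mostly from under 10 cells, leaving out ribosomal, mitochondrial, predicted and antigen receptor genes. Other members of a list named in the text were chosen after their values were seen. Ratios have exact conditional binomial and shares exact Clopper-Pearson intervals at 95%, for counting error only. Cells were thinned with seed 1. Calls were tested on simulated counts. Scrublet marked 4 and 5 cells as doublets, which is 0.806% and 0.237%, and none was removed. The tools were Python 3.11.15, numpy 2.4.6, scipy 1.17.1, pandas 2.3.3, scanpy 1.11.5 and matplotlib 3.10.9. Coordinates come from GENCODE and promoters from RefSeq, both on GRCm38. Alternatives changed the pseudocount, the filter, the scaling, the fold and the choice of cells. Some members of the lists are not reported here by name.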

Additional observations from a re-analysis of the deposited data

Results flagged for a closer look

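For 5 of the named genes the arms differed past the fold in opposite directions in transferred and endogenous CD8 cells, each side with 1 library an arm. The log2 ratio of Eomes was -1.40 in transferred and 1.34 in endogenous cells, that of Myb -0.78 and 1.04, and that of Igfbp7 1.24 and -1.21. For Lair1 it was 0.73 and -0.71, and for Cdkn1a 0.66 and -1.30. None of these differences was tested. Eomes had 52 UMIs in the IRF4 transferred cells, and 50% of the Lair1 UMIs there sat in 15 cells.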

How the results depend on the processing

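No paired analysis was possible because each group is 1 library. Of 131 list and leading genes past the fold, from 96 to 131 were past it the same way under the 11 alternatives that did not split cells by mitosis genes. The 282 higher and 235 lower genes became 99 and 54 at 50 CPM or more, 442 and 687 with 1 UMI as the only filter, 49 and 64 at a ratio of 2, and 515 and 482 in cells without a UMI of Lyz2, Cd74, Hbb-bs and Pmel, where fewer UMIs are summed. There were 154 lower genes with a pseudocount of 5 CPM, 429 in non-cycling cells and 158 higher genes in cycling cells. The ratio of cycling shares was 1.03 by the wide gate, 1.2, 1.38 and 1.49 with at least 1, 3 and 5 UMIs of the 5 mitosis genes, and 1.37 with 15 UMIs of both lists. The last 4, the splits by mitosis genes and the choice of cells without 10 myeloid and red cell genes were chosen after seeing the data. Cells without any proliferation UMI were planned as an alternative but not run, since 1 IRF4 cell qualified. Some log2 ratios turned sign: Apoe to 0.50 in cells of 5000 to 40000 UMIs, Fcgr3 to 0.063 and Ifi204 to 0.39 without those 4 genes, Hmox1 to 0.32 without 10 myeloid and red cell genes, Cdkn1a to -0.32 and the metallothionein median to -0.057 in non-cycling cells, and Ifng to 0.15 and Spp1 to 0.28 in cycling cells. The cause was not tested. Depth limits low genes most, and the IRF4 side the more, with 14061052 against 68282866 UMIs.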
